A study of Mus musculus with 8 samples.

Results

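The Hox genes were followed across 8 spontaneous ovarian tumours, by chromosomal cluster and by position within it. All rows of the array that carry the name of a gene of the HoxA, HoxB, HoxC or HoxD cluster were taken, which gave 39 genes out of 31710 named on the array. The HoxA cluster gave 11 of them, HoxB 10, HoxC 9 and HoxD 9. They were read by 44 probes of 60 bases, and each gene was represented by its brightest probe.

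The tumours came from female TgMISIIR-TAg mice of the C57BL/6J strain, 4 of them Nedd9-null and 4 Nedd9-WT, with 1 array per mouse. All 8 mice carried the transgene, in which the promoter of the Muellerian inhibiting substance type II receptor drives the SV40 large T antigen. This receptor is made in the gonads and around the Muellerian duct, which limits the cells in which the transgene can act. No treatment or age is given in the labels. NEDD9 belongs to the CAS family of scaffold proteins, which act in integrin and SRC signalling.

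Hox genes encode homeodomain transcription factors that give cells their place along the body axis. Within a cluster they lie in paralogue order, and during development low numbers are active earlier and further forward than high numbers. In the female reproductive tract the posterior HoxA genes pattern the Muellerian duct, with Hoxa9 in the oviduct, Hoxa10 and Hoxa11 in the uterus and Hoxa13 in the cervix and upper vagina. HOX proteins bind DNA with cofactors of the TALE class, PBX and MEIS. Polycomb complexes keep the clusters silent, and retinoic acid receptors and CDX factors switch them on in the embryo.

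On the mm9 build given in the file headers, the Hox probes spanned chr6:52105594-52208915 for HoxA, chr11:96057854-96228510 for HoxB, chr15:102759058-102867272 for HoxC and chr2:74509248-74603059 for HoxD. The promoters of a few genes that the results turn on are shown because the members of a stretch varied together. Each sequence is the 250 bases before the gene's start in RefSeq's table of the GRCm38.p6 assembly, on the plus strand, 5′ to 3′. Capitals mark matches, on either strand, to the PBX-HOX motif TGATNNAT, the MEIS motif TGACAG or the CDX motif TTTATG.
Hoxb4, chr11:96318017-96318266: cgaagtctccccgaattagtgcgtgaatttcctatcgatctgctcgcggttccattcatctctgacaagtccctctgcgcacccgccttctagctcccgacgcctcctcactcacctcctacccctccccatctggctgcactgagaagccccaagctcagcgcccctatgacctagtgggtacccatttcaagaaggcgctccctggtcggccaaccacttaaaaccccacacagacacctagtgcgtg
Hoxb8, chr11:96281655-96281904: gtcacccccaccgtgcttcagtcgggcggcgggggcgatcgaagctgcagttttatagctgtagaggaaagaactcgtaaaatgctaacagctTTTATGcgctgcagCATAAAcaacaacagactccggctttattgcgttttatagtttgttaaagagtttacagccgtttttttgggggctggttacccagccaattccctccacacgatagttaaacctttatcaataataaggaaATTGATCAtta
Hoxc4, chr15:103034145-103034394: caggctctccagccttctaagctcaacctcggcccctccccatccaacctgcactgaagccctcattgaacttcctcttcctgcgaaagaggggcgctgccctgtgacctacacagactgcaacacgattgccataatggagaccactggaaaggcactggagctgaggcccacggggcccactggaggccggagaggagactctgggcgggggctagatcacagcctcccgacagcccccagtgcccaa
Hoxd4, chr2:74721728-74721977: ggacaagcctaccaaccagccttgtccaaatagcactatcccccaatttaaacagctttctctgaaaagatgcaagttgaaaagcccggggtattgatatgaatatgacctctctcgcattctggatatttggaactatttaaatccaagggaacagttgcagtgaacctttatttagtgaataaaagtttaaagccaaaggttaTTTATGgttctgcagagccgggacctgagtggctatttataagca
Hoxb8 held 1 PBX-HOX match and 2 CDX matches, Hoxd4 held 1 CDX match, and Hoxb4 and Hoxc4 held no match to these letters. The table listed 24 promoters of 22 Hox genes. The PBX-HOX letters were in 4 of the 24 and in 7.7% of all 32851 promoters of the table, the MEIS letters in 2 of the 24 and in 15.9% of all, and the CDX letters in 5 of the 24 and in 10.8% of all. The 3 motifs were searched separately, and no 2 matches shown overlap.

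One probe limits what can be said of Hoxb3. The array's annotation of the brightest Hoxb3 probe lists transcripts of both Hoxb3 and Hoxd3, the only one of the 44 probes to list more than 1 Hox gene, so its signal can come from either. The other Hoxb3 probe lists Hoxb3 alone and is given beside it in the results. The longest run of bases shared between any 2 Hox probes of different genes was 11. It was 8 for the brightest Hoxb3 probe, so a short run does not show that a probe reads 1 Hox gene alone.

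The targeted transcript was read first, as a check of the labels. A level is the log2 signal of a probe minus the 75th percentile of its array, and a difference is the mean of Nedd9-null minus the mean of Nedd9-WT tumours. Nedd9 was at -2.01, -3.50, -3.39 and -4.03 in Nedd9-null tumours 1 to 4, against 1.15, 0.84, 1.30 and 1.85 in Nedd9-WT tumours 1 to 4. The groups did not overlap, and the difference of -4.51 ± 0.44 (SE, limma, adjusted p = 0.0281, n = 4 per genotype) had an exact permutation p of 0.0286, the smallest that 70 arrangements of 8 arrays can give. Nedd9-null tumour 1 stood apart from the other Nedd9-null tumours before any Hox gene was considered. Across the 25537 genes tested, which are not independent, its correlation was 0.886 to 0.920 with the other 3 Nedd9-null arrays and 0.938 to 0.973 with the 4 Nedd9-WT arrays. Many of the results that rest on it are therefore given with and without it. It was singled out from these same values, so p-values without it depend on that choice and are descriptions only. Over all genes, 17 had a limma adjusted p under 0.05 with all arrays, and 4771 without this tumour. All Nedd9-null arrays were on 1 slide and all Nedd9-WT arrays on the other, so slide and genotype cannot be told apart, and the number of arrays limits the precision.

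The Hox transcripts detected on every array came mostly from the middle of the clusters. A gene was called detected on an array where the scanner software marked its probe as well above background. Of the 39 genes, 15 were detected on all 8 arrays, 19 on some, and 5 on none. The 5 undetected genes all belong to paralogue numbers 9 to 13: Hoxa11, Hoxb13, Hoxc11, Hoxd12 and Hoxd13, which act at the hind end of the embryo, in the uterus, the prostate and the digits among other places. Of the 15 genes numbered 4 to 8, 11 were detected on all arrays and the other 4 on some. Of the 16 genes numbered 9 to 13, 3 were detected on all arrays, 8 on some and 5 on none. Of the 8 genes numbered 1 to 3, 1 was detected on all arrays and 7 on some. Signals of different probes are not on 1 scale, so these counts say nothing of the amounts of one gene against another.

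**Figure D1:**
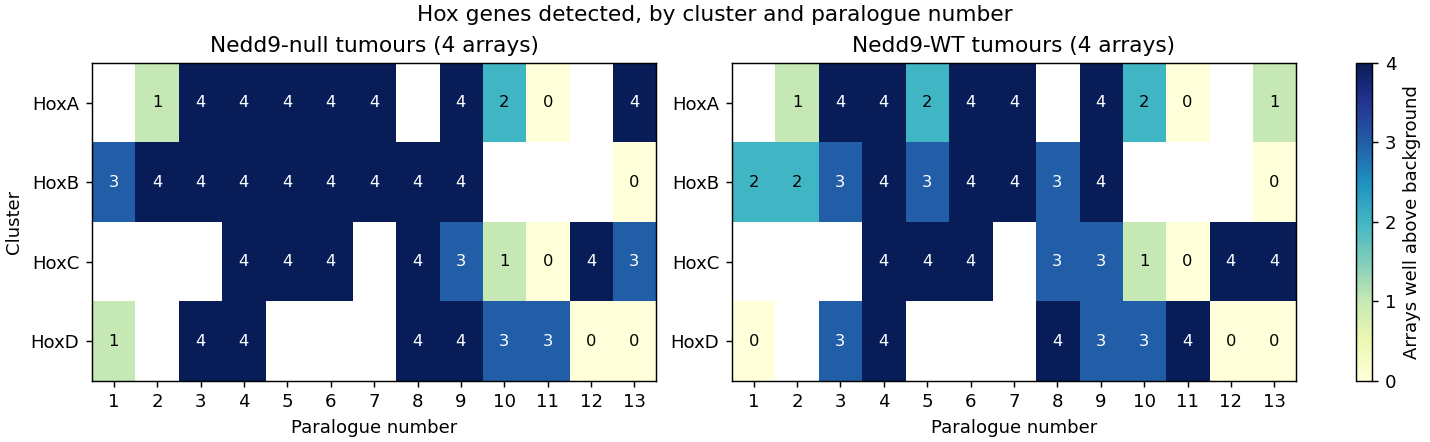
Number of arrays, out of 4 per genotype, on which each Hox gene was well above background, by cluster (rows) and paralogue number (columns), with Nedd9-null tumours on the left and Nedd9-WT tumours on the right. Blank squares have no such gene on the array or one that is not reported here, and the squares at 0 in both panels are Hoxa11, Hoxb13, Hoxc11, Hoxd12 and Hoxd13.

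Detection varied between tumours as well as between genes. Nedd9-null tumours 1 to 4 had 34, 30, 29 and 26 Hox genes above background, and Nedd9-WT tumours 1 to 4 had 31, 23, 19 and 32. The ranges of the genotypes overlap, and the lowest counts were in Nedd9-WT tumours 2 and 3. Over all probes these arrays also had the lowest shares above background, 73.0% and 76.4%, against 79.5% to 84.6% on the other 6 arrays.

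Tested between the genotypes were genes detected on 3 or more of the 4 arrays of a genotype, which held for 30 of the 39 Hox genes. None of the 30 passed an adjusted p of 0.05 in limma, where 17 of all 25537 genes did (0.0666%). At an unadjusted p under 0.05 there were 8 Hox genes (26.7%), against 23.9% of all genes, so that the Hox share was near the background. Of these, 7 were higher in Nedd9-null tumours (23.3%, against 13.1% of all genes) and 1 was lower (3.33%, against 10.8%). The 4 tumours of one genotype lay wholly above those of the other in 3 Hox genes (10%), Hoxa6, Hoxd3 and Hoxd4, against 12.7% of all genes. All 3 were higher in Nedd9-null tumours, as were 7.16% of all genes, and 0 were lower, where 5.58% of all genes were. Without Nedd9-null tumour 1, 4 Hox genes passed (13.3%), Hoxb2, Hoxc4 and Hoxc5 higher and Hoxb9 lower, against 18.7% of all genes. The 3 higher ones (10%) stand beside 10.3% of all genes and the 1 lower one (3.33%) beside 8.36%. With limma's array weights 7 passed (23.3%), adding Hoxb3, Hoxb7 and Hoxc6 to those 4, against 23.4% of all genes. The weights were estimated from these same values, so these calls are descriptions too.

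The median difference varied with cluster and position. The median difference was 2.29 over the 9 HoxB genes tested, 1.09 over the 6 HoxD genes, 0.40 over the 7 HoxC genes and 0.36 over the 8 HoxA genes, beside 0.03 over all genes. These medians were 3.14, 0.79, 0.33 and 0.24 without Nedd9-null tumour 1, beside -0.07 over all genes. With each tumour left out in turn the HoxB median ran from 1.82 to 3.14 and was the highest of the 4 each time. The HoxD median ran from 0.50, without Nedd9-WT tumour 3, to 1.53. The HoxA median ran from 0.12, without Nedd9-WT tumour 2, to 0.43, and was 0.22 without Nedd9-WT tumour 3. The HoxC median ran from 0.13, without Nedd9-WT tumour 3, to 1.02, without Nedd9-WT tumour 1, and any tumour but Nedd9-null tumour 1 moved it by over 1.5 times, so its place among the clusters is not settled. By position it was 1.10 over the 6 tested genes numbered 1 to 3, 2.17 over the 15 numbered 4 to 8 and 0.09 over the 9 numbered 9 to 13. These were 0.68, 2.49 and -0.20 without Nedd9-null tumour 1. With each tumour left out in turn the genes numbered 1 to 3 ran from 0.62, without Nedd9-WT tumour 2, to 1.49, those numbered 4 to 8 from 1.64 to 2.57, and those numbered 9 to 13 from -0.20, without Nedd9-WT tumour 3, to 0.51, without Nedd9-null tumour 4. The middle genes had the highest median each time, and the sign of the last group was not settled. All 15 genes numbered 4 to 8 had a difference above 0, as did 26 of the 30 tested and 52.2% of all genes. Of the 15, Hoxa4 was at 0.06 and fell to -0.17 in the deposited value table, where Hoxa5 was at -0.0092. These medians and counts are descriptions of genes that share arrays and neighbours. The filter passed 5 of the 30 through the Nedd9-null arrays alone, Hoxa5, Hoxa13, Hoxb1 and Hoxb2 among them, so their differences are not independent of the filter.

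**Figure D2:**
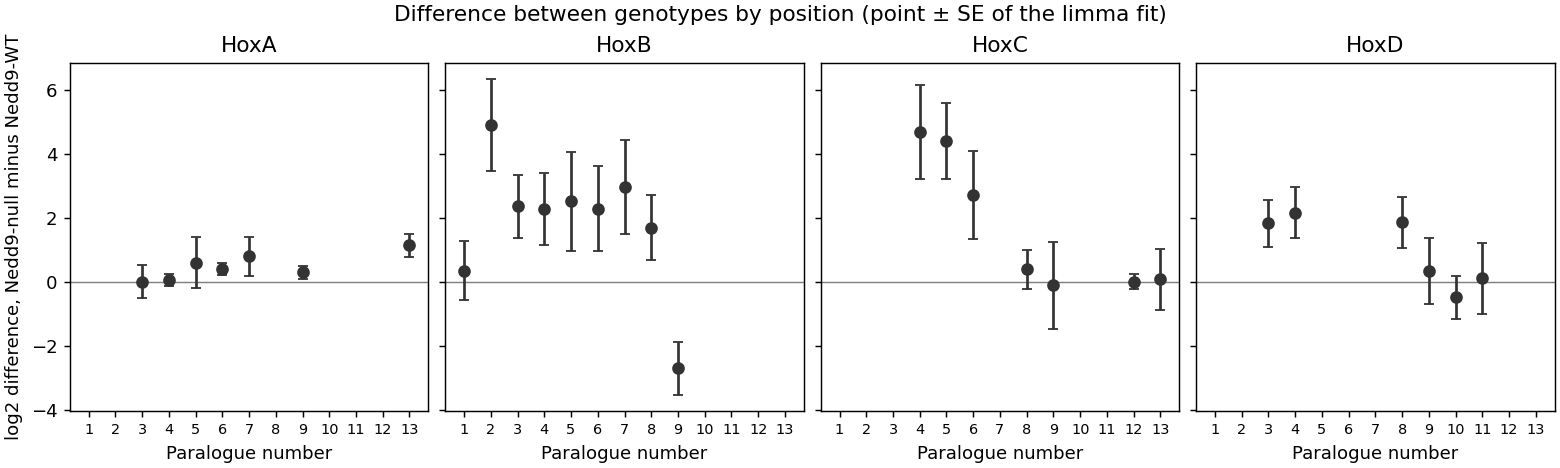
Difference in log2 signal, Nedd9-null minus Nedd9-WT, of the Hox genes tested, by cluster and paralogue number, with 1 gene not drawn. Points are the limma estimates, bars are their SE (n = 4 per genotype) and the grey line is 0; estimates above 1 lie at Hoxb2 to Hoxb8, Hoxc4 to Hoxc6, Hoxd3 to Hoxd8 and Hoxa13, and Hoxb9 lies at -2.71.

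In the HoxB cluster the tumours spread widely from Hoxb2 to Hoxb8, with a break between Hoxb8 and Hoxb9. The range over the 8 tumours was 5.13 to 8.87 on the log2 scale in these genes, and 7.29 to 8.18 in Hoxc4 to Hoxc6. Hoxb2, which acts in the hindbrain, was at -4.73, 0.49, -1.38 and 0.64 in Nedd9-null tumours 1 to 4, against -3.80, -8.24, -7.70 and -4.87 in Nedd9-WT tumours 1 to 4. Tumours 2, 3 and 4 of the Nedd9-null mice were above all others, and Nedd9-null tumour 1 lay inside the range of Nedd9-WT. The difference was 4.91 ± 1.45 (SE, n = 4 per genotype, limma adjusted p = 0.114), and 6.07 without Nedd9-null tumour 1 (limma adjusted p = 0.0130). The Nedd9-WT signal of Hoxb2 was well above background on only 2 of 4 arrays and the gene passed the filter through the Nedd9-null arrays alone, and the size varied with the processing: it was 3.48 with normexp background correction and 3.68 in the deposited value table.

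Hoxb3, a neck and hindbrain gene whose probe may also read Hoxd3, was at -5.08, -2.75, -2.53 and -2.70 in Nedd9-null tumours, against -3.51, -5.45, -8.04 and -5.51 in Nedd9-WT tumours. The 3 Nedd9-null tumours numbered 2 to 4 lay within 0.22 of each other and above every Nedd9-WT tumour, while Nedd9-null tumour 1 fell among the Nedd9-WT values. The difference was 2.36 ± 0.98 (SE, limma adjusted p = 0.195), and 2.97 without Nedd9-null tumour 1 (limma adjusted p = 0.0713). It was 1.56 without Nedd9-WT tumour 3, 1.48 with normexp and 1.53 in the deposited value table. The probe that lists Hoxb3 alone was at -7.23, -2.49, -2.25 and -2.13 in Nedd9-null tumours, against -2.65, -9.36, -8.32 and -7.11 in Nedd9-WT tumours. It was well above background on 4 Nedd9-null and 2 Nedd9-WT arrays. The same Nedd9-null tumours were high on it, joined by Nedd9-WT tumour 1, and the means differed by 3.34, which was not tested.

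From Hoxb4, known for its effect on blood stem cells, to Hoxb8, the same tumours were high, joined by Nedd9-WT tumour 1. Hoxb7 was at -3.26, 0.69, 1.68 and 1.56 in Nedd9-null tumours, against 0.75, -4.25, -4.37 and -3.40 in Nedd9-WT tumours. In raw signal this was 253, 5557, 10377 and 10500 in Nedd9-null tumours, against 4826, 167, 142 and 281 in Nedd9-WT tumours. Nedd9-WT tumour 1 thus lay beside Nedd9-null tumours 2 to 4, and Nedd9-null tumour 1 beside the other Nedd9-WT tumours. The differences of the 5 genes Hoxb4, Hoxb5, Hoxb6, Hoxb7 and Hoxb8 were 2.28, 2.53, 2.29, 2.99 and 1.70, with limma adjusted p between 0.260 and 0.359. Without Nedd9-null tumour 1 they were 3.14, 3.58, 3.27, 4.13 and 2.49, with limma adjusted p between 0.0601 and 0.131. Normexp gave 1.57 for Hoxb5 and 0.99 for Hoxb8, and leaving out Nedd9-WT tumour 1 gave 3.88 for Hoxb5 and leaving out Nedd9-null tumour 4 gave 1.09 for Hoxb8.

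Hoxb9, which patterns the thorax, ran the other way. It was at -0.92, -4.28, -4.75 and -4.68 in Nedd9-null tumours, against -1.08, -0.60, -1.45 and -0.68 in Nedd9-WT tumours. Its raw signal was 1279, 178, 120 and 138 in Nedd9-null tumours, against 1354, 2103, 1075 and 1852 in Nedd9-WT tumours. The 4 Nedd9-WT tumours lay close together (SD 0.39), Nedd9-null tumour 1 lay within them, and the other 3 Nedd9-null tumours lay below all of them. The difference was -2.71 ± 0.83 (SE, limma adjusted p = 0.120), a 6.53-fold lower mean. Without Nedd9-null tumour 1 it was -3.62 ± 0.26 (SE, limma adjusted p = 0.000363). The probes of Hoxb9 and Hoxb8 are 8.77 kb apart. Nedd9-WT tumour 1 was high in both Hoxb9 and Hoxb4 to Hoxb8, so a high value on one side of the break did not go with a low one on the other in every tumour.

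**Figure D3:**
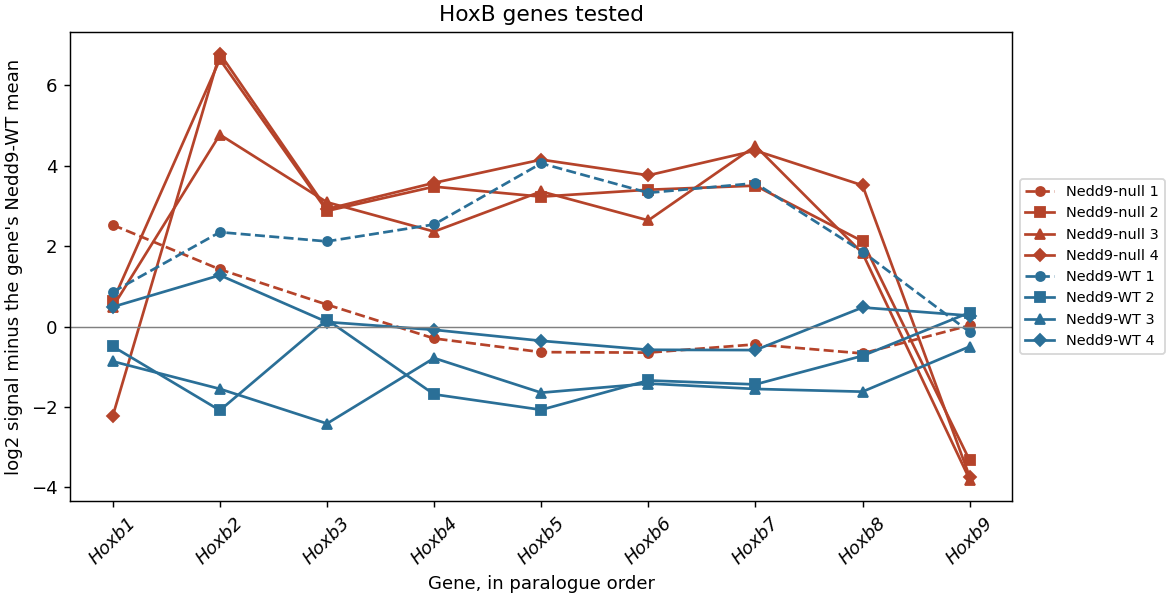
Log2 signal of the 9 HoxB genes tested in each tumour, as the difference from the gene's Nedd9-WT mean, in paralogue order. Lines are single arrays, dashed for tumour 1 of each genotype. Nedd9-null tumours 2 to 4 and Nedd9-WT tumour 1 lie above the rest from Hoxb2 to Hoxb8, and Nedd9-null tumours 2 to 4 lie lowest at Hoxb9.

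At the ends of the cluster, Hoxb1, a hindbrain gene, had a difference of 0.36 ± 0.93 (SE, limma adjusted p = 0.852), and Hoxb13, a gene of the prostate and tail, was detected on no array.

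In the HoxC cluster the difference was 2.71 or more from Hoxc4 to Hoxc6 and 0.40 or less in the genes tested from Hoxc8 on. Hoxc4, of the neck and upper thorax, was at -3.37, 2.40, 2.58 and 2.85 in Nedd9-null tumours, against -1.76, -3.11, -5.33 and -4.14 in Nedd9-WT tumours. Its raw signal reached 18200, 19315 and 25695 in Nedd9-null tumours 2 to 4 and was 234 in Nedd9-null tumour 1, against 845, 368, 72.9 and 167 in Nedd9-WT tumours. Nedd9-null tumours 2 to 4 were above all others and Nedd9-null tumour 1 was among the Nedd9-WT values. The difference was 4.70 ± 1.47 (SE, limma adjusted p = 0.124), and 6.20 without Nedd9-null tumour 1 (limma adjusted p = 0.00227).

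Hoxc5, its neighbour, was at -4.88, -0.46, 0.40 and 0.41 in Nedd9-null tumours, against -4.62, -4.91, -6.88 and -5.78 in Nedd9-WT tumours. The same 3 tumours were high, and Nedd9-WT tumour 1 was not. The difference was 4.41 ± 1.20 (SE, limma adjusted p = 0.105), and 5.66 without Nedd9-null tumour 1 (limma adjusted p = 0.000964). Of the 30 Hox genes it had the smallest p with all arrays in the fit.

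Hoxc6, which marks the level of the forelimb, was at -2.01, 2.33, 2.83 and 1.82 in Nedd9-null tumours, against 0.14, -0.09, -4.68 and -1.24 in Nedd9-WT tumours. Nedd9-null tumours 2 to 4 were again highest, and the other 5 values spread over several log2 units. The difference was 2.71 ± 1.38 (SE, limma adjusted p = 0.272), and 3.79 without Nedd9-null tumour 1 (limma adjusted p = 0.0605), and 1.64 without Nedd9-WT tumour 3.

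Hoxc8, a thoracic gene whose probe is 20.9 kb from that of Hoxc6, had a difference of 0.40 ± 0.61 (SE, limma adjusted p = 0.735). Hoxc9 had -0.11 ± 1.35, with the highest value, -2.69, in Nedd9-WT tumour 1 and the lowest, -9.41, in Nedd9-WT tumour 3. Hoxc12 and Hoxc13, a hair follicle gene, had differences of 0.011 ± 0.24 and 0.09 ± 0.95. Hoxc10 was well above background on 1 array of each genotype, too few for the test, and its means differed by 0.91. Hoxc11 was above it on none.

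In the HoxD cluster, Nedd9-null tumour 1 was with the other Nedd9-null tumours in Hoxd3, Hoxd4 and Hoxd8. This was unlike Hoxb2 to Hoxb8 and Hoxc4 to Hoxc6. In Hoxd9 and Hoxd11 Nedd9-null tumour 1 was the highest of the Nedd9-null tumours, at -4.89 and -4.15. Hoxd3, which shapes the first neck vertebrae, was at -3.26, -4.11, -4.14 and -3.57 in Nedd9-null tumours, against -4.95, -7.94, -5.06 and -4.46 in Nedd9-WT tumours. The groups did not overlap, and the difference was 1.83 ± 0.73 (SE, limma adjusted p = 0.180), and 1.66 without Nedd9-null tumour 1 (limma adjusted p = 0.206). Hoxd4, another neck gene, was at 0.22, -0.23, -0.61 and -0.13 in Nedd9-null tumours, against -1.52, -4.90, -2.0 and -1.02 in Nedd9-WT tumours. These groups did not overlap either, and Nedd9-WT tumour 2 was lowest in both genes. The difference of Hoxd4 was 2.17 ± 0.78 (SE, limma adjusted p = 0.154), and leaving out Nedd9-null tumour 1 gave 2.04 (limma adjusted p = 0.162). Without Nedd9-WT tumour 2 the differences were 1.06 for Hoxd3 and 1.33 for Hoxd4 (limma adjusted p = 0.202 and 0.200). Normexp gave 1.00 for Hoxd3.

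Hoxd8, the next gene of the cluster, was at -2.14, -1.24, -1.82 and -1.93 in Nedd9-null tumours, against -1.52, -4.04, -5.79 and -3.23 in Nedd9-WT tumours. Nedd9-WT tumour 1 overlapped the Nedd9-null values here. The difference was 1.86 ± 0.80 (SE, limma adjusted p = 0.210), and 1.15 without Nedd9-WT tumour 3. Hoxd9, Hoxd10 and Hoxd11, genes of the lower trunk and limb, had differences of 0.35 ± 1.03, -0.48 ± 0.67 and 0.11 ± 1.11. The annotation of the Hoxd11 probe tested lists no RefSeq gene. A dimmer probe that lists Hoxd11 was well above background on no array. Its means differed by 0.22, which was not tested, so detection of Hoxd11 is not settled. Hoxd1 was well above background on 1 Nedd9-null array and on no Nedd9-WT array, too dim for a lower bound on its fold, and Hoxd12 and Hoxd13 were at background on all arrays.

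**Figure D4:**
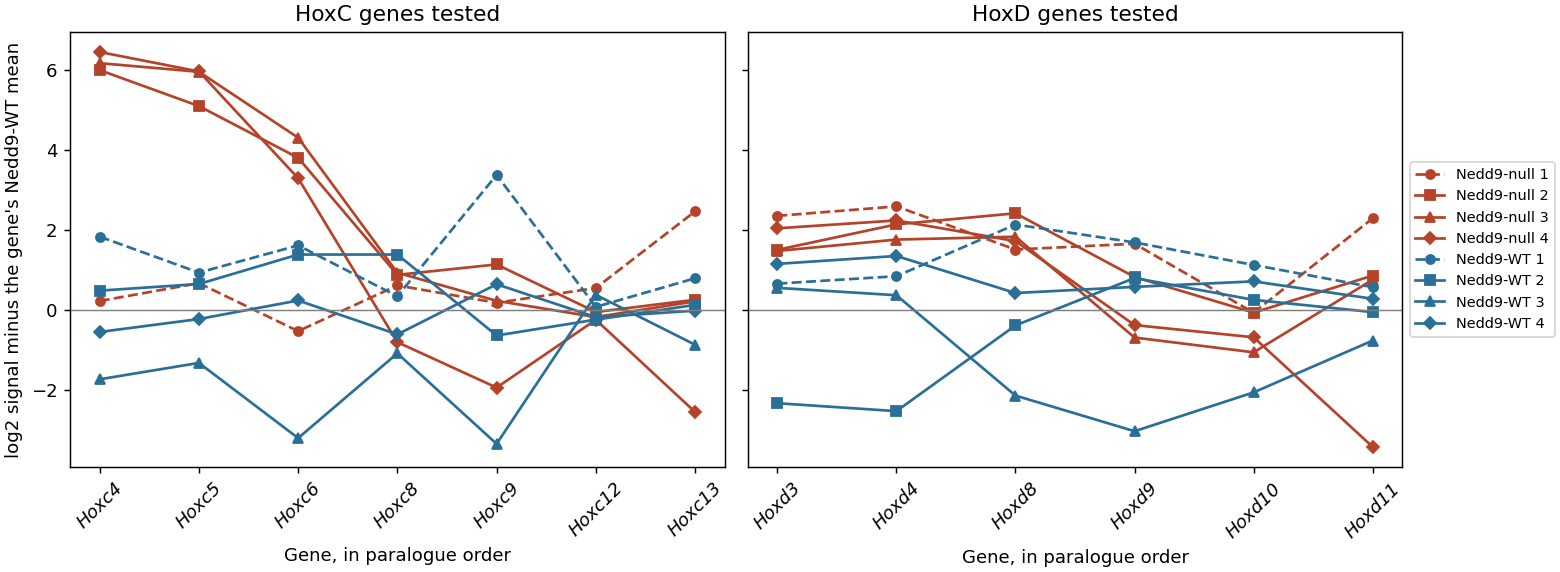
Log2 signal of the HoxC genes (left) and HoxD genes (right) tested in each tumour, as the difference from the gene's Nedd9-WT mean, in paralogue order. Nedd9-null tumours 2 to 4 lie above all others at Hoxc4, Hoxc5 and Hoxc6, and at Hoxd3 and Hoxd4 all 4 Nedd9-null tumours lie above the Nedd9-WT tumours.

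The HoxA cluster, which holds the genes that pattern the Muellerian duct, had no gene past the threshold, and the median difference over its 8 genes tested was 0.36. Hoxa9, of the oviduct, was at -4.75, -5.12, -5.22 and -5.00 in Nedd9-null tumours, against -5.25, -5.60, -5.48 and -4.95 in Nedd9-WT tumours. The groups overlap, and the difference was 0.30 ± 0.20 (SE, limma adjusted p = 0.398). A second Hoxa9 probe, also well above background on all 8 arrays, ran the other way, at -5.06, -5.36, -5.66 and -5.59 in Nedd9-null tumours, against -4.90, -5.29, -5.13 and -5.28 in Nedd9-WT tumours. Its means differed by -0.26, and the mean of both probes gave a difference of 0.017, so no direction is given for Hoxa9. Hoxa10, of the uterus, was at -5.94, -7.45, -6.36 and -10.12 in Nedd9-null tumours, against -5.47, -9.34, -9.23 and -7.63 in Nedd9-WT tumours, and was well above background on 2 arrays of each genotype, too few for the test. Hoxa11, also of the uterus, was between -10.05 and -9.40 in Nedd9-null tumours, against -10.07 and -9.26 in Nedd9-WT tumours, at background on all arrays.

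Hoxa13, of the cervix and vagina, was at -5.70, -6.65, -7.17 and -6.65 in Nedd9-null tumours, against -8.27, -7.80, -7.60 and -7.10 in Nedd9-WT tumours. It was well above background on 4 Nedd9-null arrays and 1 Nedd9-WT array, and Nedd9-null tumour 3 was just below Nedd9-WT tumour 4. The difference was 1.15 ± 0.36 (SE, limma adjusted p = 0.125), in a gene that passed the filter through the Nedd9-null arrays alone, and its size varied with the processing: it was 0.22 with normexp and 0.33 in the deposited value table. A second Hoxa13 probe was well above background on only 1 array, of a Nedd9-null tumour. It lay between -8.57 and -7.29 in Nedd9-null tumours, against -9.73 and -8.84 in Nedd9-WT tumours. Its means differed by 1.38, near background, which was not tested. Hoxa6, a thoracic gene, was at -5.39, -5.88, -5.92 and -6.12 in Nedd9-null tumours, against -6.17, -6.36, -6.28 and -6.15 in Nedd9-WT tumours. Its groups did not overlap, but the nearest values were 0.03 apart, and the difference was 0.42 ± 0.19 (SE, limma adjusted p = 0.228). Hoxa7, the next gene of the cluster, had a difference of 0.80 ± 0.60. Hoxa3, Hoxa4 and Hoxa5 had 0.0085 ± 0.52, 0.06 ± 0.19 and 0.61 ± 0.79. Hoxa2 was well above background on 1 array of each genotype.

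Among the cofactors that HOX proteins bind DNA with, 0 of the 9 TALE genes passed the threshold in limma, and 4 passed without Nedd9-null tumour 1, all higher, Meis1, Meis2 and Pbx4 among them, where 10.3% of all genes passed higher and 18.7% in all. The median difference over the 9 was 0.41, beside 0.03 over all genes. Meis1 was at -0.99, 3.78, 3.86 and 3.74 in Nedd9-null tumours, against 1.34, -1.20, -4.45 and -3.51 in Nedd9-WT tumours. Nedd9-null tumours 2 to 4 lay within 0.12 of each other and above the rest, and Nedd9-WT tumour 1 came next. Its difference was 4.55 ± 1.55 (SE, limma adjusted p = 0.139), and 5.75 without Nedd9-null tumour 1 (limma adjusted p = 0.0235).

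Meis2, the sister gene of Meis1, was at -3.27, 1.87, 1.55 and 1.46 in Nedd9-null tumours, against -1.05, -4.90, -5.85 and -4.39 in Nedd9-WT tumours. The order of the tumours had the same top 3 and again Nedd9-WT tumour 1 next. The difference was 4.45 ± 1.42 (SE, limma adjusted p = 0.126), and 5.68 without Nedd9-null tumour 1 (limma adjusted p = 0.0110). Pbx4 had a difference of 1.37 ± 0.38 (SE, limma adjusted p = 0.105), with the 4 Nedd9-null tumours at -2.86, -1.69, -1.24 and -1.25, against -3.23, -2.80, -3.45 and -3.04 in Nedd9-WT tumours.

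**Figure D5:**
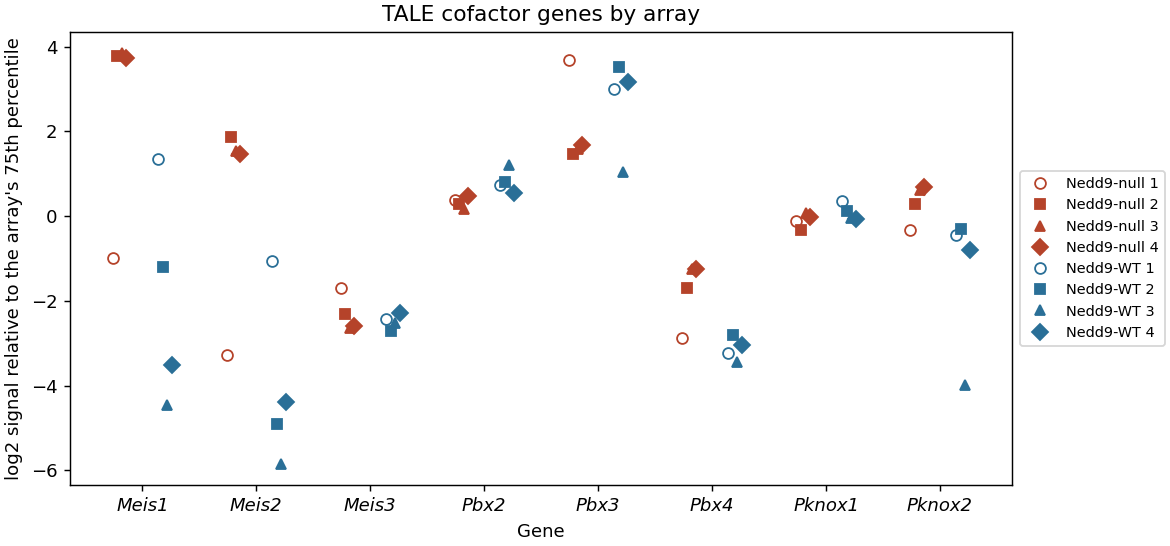
Log2 signal, minus the 75th percentile of the array, of TALE cofactor genes, with 1 gene not drawn, in Nedd9-null (left of each pair) and Nedd9-WT tumours, with tumour 1 of each genotype as an open circle. Heights of different genes come from different probes and are not compared. Meis1 and Meis2 are high in Nedd9-null tumours 2 to 4 and next highest in Nedd9-WT tumour 1.

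Of the regulators of the clusters, none passed the threshold in limma with all arrays. Of 10 upstream regulators 8 were tested, since Cdx2 and Cdx4 were at background on every array. Without Nedd9-null tumour 1, 3 passed, all higher, beside 10.3% of all genes. Rarb, a retinoic acid receptor that is itself induced by retinoic acid, was at -3.77, -0.17, 0.17 and -0.15 in Nedd9-null tumours, against -2.04, -4.84, -2.86 and -4.47 in Nedd9-WT tumours. The highest were Nedd9-null tumours 2 to 4, with Nedd9-WT tumour 1 next. The difference was 2.57 ± 1.01 (SE, limma adjusted p = 0.178), and 3.51 without Nedd9-null tumour 1 (limma adjusted p = 0.0131). Rara, the receptor of the same family with the widest expression, had a difference of -1.03 ± 0.29 (limma adjusted p = 0.108), and Zbtb16, a zinc finger regulator of Hox genes in limb development, had 2.38 ± 0.68 (limma adjusted p = 0.110).

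Of 17 genes of Polycomb subunits, which silence Hox clusters, 16 were tested with a median difference of -0.26, and without Nedd9-null tumour 1, 5 passed lower and 1 higher, beside 8.36% and 10.3% of all genes. Ezh2, the methyltransferase of the complex, had a difference of -0.60 ± 0.20 (SE, limma adjusted p = 0.139) and Rnf2, a ubiquitin ligase, had -0.77 ± 0.26 (limma adjusted p = 0.137). A list of 12 Trithorax and MLL genes, not all of them subunits of these complexes, had a median of -0.15. The complexes keep Hox genes active. Without Nedd9-null tumour 1, 2 of the 12 passed, both lower, near the 18.7% of all genes that passed and beside the 8.36% that passed lower. Those with the smallest p were Dot1l at -0.69 ± 0.17, Kmt2b at -0.53 ± 0.21 and Rbbp5 at -0.46 ± 0.19 (limma adjusted p = 0.0923, 0.179 and 0.191).

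Of 13 genes that pattern the Muellerian duct, 12 were tested and 0 passed, and without Nedd9-null tumour 1, 2 passed higher and 1 lower, beside 10.3% and 8.36% of all genes. Dach2, a transcriptional cofactor, was detected on 4 Nedd9-null arrays and on no Nedd9-WT array, where only a bound can be given. Its mean was -5.13 in Nedd9-null tumours and -8.55 in Nedd9-WT tumours, and it was higher at least 5.21-fold in the Nedd9-null tumours (limma adjusted p = 0.0596, in a gene that passed the filter through the Nedd9-null arrays alone), with each Nedd9-WT array set to the level of its dimmest detected probe where Dach2 was below that. Its relative Dach1 had a difference of 0.74 ± 0.19 (limma adjusted p = 0.0963) and Msx1, a homeobox gene, one of 1.33 ± 0.36 (limma adjusted p = 0.104). Of 6 homeobox genes that lie beside Hox or in the related ParaHox cluster, 3 were tested: Evx2, next to HoxD, had 0.50 ± 0.24, Gsx2 had 0.15 ± 0.24 and Gsx1 had 0.15 ± 0.53.

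Markers of several cell types were read on the same arrays, and their part in the Hox values was not tested. In bulk tissue, fewer cells of a type and less RNA per cell cannot be told apart. Marker lists are summarised as the mean, over the members tested, of the log2 difference from the Nedd9-WT mean. For 12 markers of ciliated oviduct cells it was 1.28, 5.05, 5.62 and 5.56 in Nedd9-null tumours, against 1.36, -0.45, -0.72 and -0.19 in Nedd9-WT tumours. The highest were again Nedd9-null tumours 2 to 4, and Nedd9-null tumour 1 and Nedd9-WT tumour 1 came next. The 12 markers were all tested, 0 passed in limma, and without Nedd9-null tumour 1, 10 passed, all higher, beside 10.3% of all genes. Their summed level ranged from 67.6 to 194 in Nedd9-null tumours, against 10.6 to 24.9 in Nedd9-WT tumours, in units of each array's 75th percentile, and none was at background on all arrays.

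For 12 epithelial markers, 11 of them tested, the mean was -0.66, 2.21, 2.20 and 1.28 in Nedd9-null tumours, against -0.48, 0.49, -0.02 and 0.01 in Nedd9-WT tumours, and without Nedd9-null tumour 1, 6 passed, all higher, beside 10.3% of all genes. Their summed level was 6.14 to 109 in Nedd9-null tumours, against 11.5 to 55.9 in Nedd9-WT tumours. For 13 markers of granulosa and steroidogenic cells, 12 of them tested, it was -0.58, -2.34, -4.35 and -4.60 in Nedd9-null tumours, against 0.05, 0.45, -0.53 and 0.04 in Nedd9-WT tumours, and without Nedd9-null tumour 1, 6 passed, all lower, beside 8.36% of all genes. Their summed level was 17.9 to 58.8 in Nedd9-null tumours, against 58.6 to 94.9 in Nedd9-WT tumours. The mean was lowest in Nedd9-null tumours 2 to 4, the tumours in which Hoxb9 was low. In Nedd9-WT tumour 1 the HoxB genes lay at a median of 2.35 above their Nedd9-WT means. This tumour was outside the range of Nedd9-null tumours 2 to 4 in both of these lists. For the ciliated markers it was also outside that range, at 1.36, but was the highest of the Nedd9-WT tumours. Whether the markers and the HoxB values go together was not tested.

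Fat markers singled out tumour 1 of each genotype: over 5 genes the mean was 4.18, -0.10, -1.97 and -1.64 in Nedd9-null tumours, against 3.18, -1.45, -0.98 and -0.75 in Nedd9-WT tumours, and their summed level was 0.0936 to 20.8 in Nedd9-null tumours, against 0.177 to 13.2 in Nedd9-WT tumours. In the other lists 0 members passed with all arrays. Without Nedd9-null tumour 1 there passed 1 of 8 fibroblast genes (lower), 1 of 5 tested kidney and intestine genes (higher) and 0 of 8 for each of mesothelium, endothelium and leukocytes, beside 18.7% of all genes. Their median differences were -0.42, 0.28, -1.09, -0.74 and 0.03, in the same order. Wt1, which marks ovarian surface and granulosa cells, was between 5.03 and 5.78 in Nedd9-null tumours, against 4.85 and 5.43 in Nedd9-WT tumours.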

How the data were processed

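RNA of 8 ovarian tumours was measured on Agilent 1-colour arrays, and groups and replicate numbers come from the sample titles. Each title is taken as 1 mouse, per the labels. The deposited scanner files hold intensity values made with Agilent Feature Extraction 9.5.3, per the submitters' processing notes. Per the file headers, the processed intensity is background-subtracted and was not normalized between arrays. The deposited table of values holds log2 values that follow the median spot signal (r = 0.99896 or more) with a common median of 8.24. Its background step is not given in the sources used here, and it served as an alternative.

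After control spots (1377 of 44397) and outlier spots were dropped, repeated spots were averaged to 39429 probes. Values are log2 of the processed signal minus each array's 75th percentile (2418 to 3552 in signal). Of these probes 73.0% to 84.6% per array were well above background. The filter asked for a probe well above background on 3 or more arrays of a genotype (31784 probes), and the brightest probe stood for a gene, which left 25537 genes, tested with limma 3.58.1 in R 4.3.3 (read with the data.table package (1.17.8); lmFit and eBayes, 2-sided, Benjamini-Hochberg over all genes, threshold 0.05). The fit was tested on simulated data. Gene names were updated through RefSeq's list of genes for GRCm38.p6.

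The members and gene lists were chosen with earlier results of these data known. Values by tumour are given for the 3 Hox genes of smallest p in each cluster, for Hoxa9, Hoxa10, Hoxa11 and Hoxa13, and for genes at background in 1 genotype, and each list gives up to 3 genes of smallest p. Hoxb7 and Hoxb5os, shown in full, Gm53, AI448005, Gm14424, Gm11538, Ttll6 and Wt1 were chosen after their values were seen. Deviations of same-numbered tumours from their genotype means had correlations of -0.23 to -0.04 over the genes tested. The numbers were not used as pairs, though such correlations cannot exclude a pairing. Alternatives were another background correction, scalings, filters, probe rules, array weights, a replicate block and leaving out each tumour. A few genes and 1 probe sequence that these rules would give are not reported here.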

Additional observations from a re-analysis of the deposited data

Results flagged for a closer look

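Of 96 sets of 4 tumours examined, over the Hox genes tested and the named cofactors and regulators, 8 had 1 tumour whose distance to the nearest other was more than 0.829 of the whole range, the 95% limit of Dixon's test. Chance gives about 1 in 20 sets. In 7 of the 8 the tumour was Nedd9-null tumour 1: its gap was 0.915 of the range for Hoxb3, 0.876 for Hoxb9, 0.927 for Hoxc4, 0.836 for Hoxc5, 0.976 for Meis1, 0.921 for Meis2 and 0.913 for Rarb. These sets share that array and are not independent. In the eighth, Hoxa4 in Nedd9-WT tumour 2, the gap was 0.876 of the range, and the values of all 8 tumours lay within 0.68 on the log2 scale.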

How the results depend on the processing

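The count of 0 Hox genes past the threshold was the same under 15 of 17 alternatives. It was 7 with array weights and 0 to 4 when single tumours were left out, the 4 being without Nedd9-null tumour 1. The count over all genes was 4 with the median as the scale, 4 after quantile normalization, 7 with a filter on all 8 arrays, 5984 with array weights and 0 to 4771 when single tumours were left out, against 17. The median as the scale moved the median over all genes to -0.16. With the replicate number as a block 0 genes passed and Nedd9 stayed at -4.51 with a limma adjusted p of 0.217, and the block changed no Hox call. Leaving out single tumours moved Nedd9 between -4.92 and -4.25, with limma adjusted p of 0.000296 to 0.123. The filter on all 8 arrays left 15 Hox genes, with a median of 1.86 over all, 3.56 in HoxC, 2.02 in HoxD and 0.0085 in paralogues 1 to 3, of which only Hoxa3 was then left. The deposited value table turned the HoxA median to -0.025.

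No Hox gene had a call in the fit that the alternatives were set against. The sign turned in 44 of 495 recomputed Hox differences, in Hoxa3, Hoxa4, Hoxa5, Hoxa9, Hoxb1, Hoxc9, Hoxc12, Hoxc13, Hoxd9 and Hoxd11. The cause was not tested. Normexp gave -0.072 for Hoxa3 and -0.038 for Hoxd9. The median as the scale gave -0.18 for Hoxa3, -0.13 for Hoxa4, -0.18 for Hoxc12, -0.10 for Hoxc13 and -0.078 for Hoxd11, and quantile normalization gave -0.22, -0.22, -0.25, -0.089 and -0.042 for the same genes. The deposited value table gave -0.15 for Hoxa3, -0.17 for Hoxa4, -0.0092 for Hoxa5, -0.040 for Hoxa9, -0.080 for Hoxc12 and -0.11 for Hoxd9. Array weights gave -0.30 for Hoxa3, -0.20 for Hoxb1, -0.080 for Hoxc12, -0.55 for Hoxc13, -0.45 for Hoxd9 and -0.36 for Hoxd11. With single tumours left out the differences ran from -0.31 to 0.33 for Hoxa3, -0.073 to 0.14 for Hoxa4, -0.37 to 1.22 for Hoxb1, -1.23 to 1.02 for Hoxc9, -0.17 to 0.13 for Hoxc12, -0.70 to 0.97 for Hoxc13, -0.67 to 0.91 for Hoxd9 and -0.61 to 1.29 for Hoxd11.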

Other observations

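The genes around the clusters were read from the same fit. Within 300 kb of the outermost Hox probes, 40 other named genes were tested, and 0 passed the threshold in limma, beside 0.0666% of all genes. Without Nedd9-null tumour 1, 3 of 13 around HoxB passed, 2 of 15 around HoxC, 1 of 5 around HoxA and 0 of 7 around HoxD, beside 18.7% of all genes. Calcoco2, an autophagy receptor gene 96.6 kb outside HoxB, was at -3.31, -2.37, -1.63 and -1.71 in Nedd9-null tumours, against -4.25, -4.67, -4.37 and -4.76 in Nedd9-WT tumours. The groups did not overlap, and the difference was 2.26 ± 0.38 (SE, limma adjusted p = 0.0661), and 2.61 without Nedd9-null tumour 1 (limma adjusted p = 0.000745). Ttll6, a tubulin polyglutamylase gene of cilia 31.1 kb outside HoxB, had a difference of 2.90 ± 0.99 (limma adjusted p = 0.140). It was 4.01 without Nedd9-null tumour 1 (limma adjusted p = 0.000312). That tumour was at -4.33, among the Nedd9-WT values of -4.42 to -3.49, and the other Nedd9-null tumours were at -0.06, -0.12 and 0.41.

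Inside the clusters 9 other named transcripts were tested, with differences from -3.17 to 2.40, and 0 passed. The 2 with differences of the largest size are given in full. Gm53, between Hoxb13 and Hoxb9, was at -1.15, -6.10, -4.40 and -9.16 in Nedd9-null tumours, against -2.03, -2.08, -2.52 and -1.47 in Nedd9-WT tumours, so that the 3 tumours low in Hoxb9 were low here too. Its difference was -3.17 ± 1.48 (SE, limma adjusted p = 0.239), and -4.52 without Nedd9-null tumour 1 (limma adjusted p = 0.0228). AI448005, inside HoxD, was at 1.48, 0.98, 1.01 and 1.36 in Nedd9-null tumours, against -0.93, -3.60, -0.64 and 0.39 in Nedd9-WT tumours. Like Hoxd3 and Hoxd4 its groups did not overlap, and the difference was 2.40 ± 0.76 (SE, limma adjusted p = 0.126), and 2.31 without Nedd9-null tumour 1 (limma adjusted p = 0.114). Hoxb5os, inside HoxB, was high in the same tumours as Hoxb4 to Hoxb8. It was at -6.38, -4.42, -3.29 and -3.58 in Nedd9-null tumours, against -3.53, -7.90, -6.75 and -6.48 in Nedd9-WT tumours. Others did not share the values of the Hox genes of their cluster. Gm14424, inside HoxD, had 0.70 ± 1.00, with Nedd9-null tumours 2 to 4 at -6.95, -7.40 and -6.83 inside the Nedd9-WT range of -8.50 to -4.75. Gm11538, inside HoxB, had 0.39 ± 1.04.

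The other neighbours with the smallest p were Skap2 (-1.01 ± 0.36) and Hibadh (-0.55 ± 0.26) near HoxA, Gip (0.91 ± 0.30) near HoxB, A630065K11Rik (-1.26 ± 0.35) and Nfe2 (-1.59 ± 0.53) near HoxC and Evx2 (0.50 ± 0.24) near HoxD. Of 21 noncoding RNAs of the clusters 4 were on the array and 3 were tested. Hoxb5os had 1.75 ± 1.03, Hoxd3os1 1.49 ± 1.26 and Hoxa11os 0.12 ± 0.26, and none passed.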
